A study of Homo sapiens with 6 samples.

Results

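Small nucleolar RNA host genes are transcribed units whose introns carry small nucleolar RNAs (snoRNAs), the short guides that direct 2′-O-methylation (box C/D class) and pseudouridylation (box H/ACA class) of ribosomal RNA. The host RNA is spliced, the snoRNA is trimmed out of the excised intron and packed with a protein core, and the spliced host is either an mRNA, often one for a ribosomal protein, or a noncoding RNA named SNHG, GAS5, ZFAS1 or EPB41L4A-AS1. Many noncoding hosts start, like ribosomal protein mRNAs, with a terminal oligopyrimidine (TOP) tract, are loaded onto ribosomes and are broken down by nonsense-mediated decay, so their level depends on transcription, growth signalling and decay together. Several, such as SNHG1, SNHG5 and SNHG16, have been studied in glioma as RNAs linked to proliferation.

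The noncoding hosts were taken by symbol: every row named SNHG with a number, GAS5, ZFAS1 or EPB41L4A-AS1, which gave 28 of the 58884 genes in the table. The RNA came from DBTRG, an established human glioblastoma cell line labelled wild type, harvested after 5 days of growth in 1 of 2 settings: flat (2D) on rigid dishes, or in soft gel (3D). Each setting has 3 libraries, and no other treatment is named. The sources used here do not name the gel material, and all libraries come from this single line. The labels do not state whether replicates were grown separately. Every p-value therefore reflects library-to-library spread that may be purely technical. The libraries held 20911340 to 25901465 counts. The line's markers VIM, NES, CD44, SOX2 and EGFR were present, whereas the astrocyte marker GFAP averaged 0.645 CPM on the dish and 0.882 CPM in the gel (CPM, counts scaled to a common library size). S100B, a further marker of that list, was also low, at 0.653 CPM on the dish and 1.30 CPM in the gel. Summed CPM of the endothelial, T cell, epithelial and myeloid markers stayed between 0 and 1.85 in every library, and the neuronal markers between 7.23 and 13.1. MBP, a myelin gene, averaged 111 CPM on either substrate, and most of the 99.8 to 124 summed CPM of the oligodendrocyte markers was MBP.

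The members were checked against the annotation on hg38. Of the 28 members, 26 hold at least 1 snoRNA or scaRNA gene on the same strand in GENCODE 29, and the 2 without one are GAS5 and SNHG27. The RefSeq gene table lists 11 such genes within GAS5, among them SNORD44, SNORD47 and SNORD74 to SNORD81, and 0 within SNHG27. The row named SNHG29 is LRRC75A-AS1 in GENCODE 29, with the same gene identifier.

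The starts of the most abundant hosts are shown first, because the TOP tract is what these noncoding RNAs are known to share with ribosomal protein mRNAs. The windows run from 60 bases before the RefSeq start to 50 bases after it (GRCh38.p14, 5′ to 3′ on the gene's strand). Capitals mark a C followed by at least 4 C or T bases, beginning within 10 bases of the start and taken nearest to it. SNHG29 lies on the plus strand at chr17:16438927-16439036, SNHG5 on the minus strand at chr6:85678684-85678793, ZFAS1 on the plus strand at chr20:49278582-49278691 and GAS5 on the minus strand at chr1:173868996-173869105. They were chosen among the 5 members with the highest mean TPM, defined below.
SNHG29: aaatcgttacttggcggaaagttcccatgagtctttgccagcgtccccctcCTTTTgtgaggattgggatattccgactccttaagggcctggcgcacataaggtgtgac
SNHG5: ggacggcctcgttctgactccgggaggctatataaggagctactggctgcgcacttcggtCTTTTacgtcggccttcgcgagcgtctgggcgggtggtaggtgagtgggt
ZFAS1: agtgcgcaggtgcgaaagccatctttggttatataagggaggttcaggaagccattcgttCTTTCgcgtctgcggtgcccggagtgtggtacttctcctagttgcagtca
GAS5: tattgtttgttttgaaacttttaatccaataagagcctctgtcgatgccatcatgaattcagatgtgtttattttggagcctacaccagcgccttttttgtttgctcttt

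In SNHG5 and ZFAS1 the marked stretch began exactly at the annotated start. In SNHG29 it began 9 bases upstream and is the end of a longer pyrimidine run that starts further upstream. The GAS5 window held no such stretch within 10 bases of the start. The first 30 bases of GENCODE 29 transcripts, which start further downstream in GAS5, are therefore given for 3 members, with the pyrimidine run in capitals. The GAS5 start (chr1:173867960-173867989, minus strand) is shared by 6 of its 29 transcripts. The SNHG16 start (chr17:76557769-76557798, plus strand) belongs to 2 of 8 transcripts, and the SNHG19 start (chr16:2155329-2155358, minus strand) to its single transcript.
GAS5: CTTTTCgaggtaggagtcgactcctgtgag
SNHG16: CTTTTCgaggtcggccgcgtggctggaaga
SNHG19: CTTTTCggggtcgagtccgagggggaagag

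Of the 24 members with a RefSeq promoter entry, 14 (58.3%) held a C followed by at least 4 C or T bases within 10 bases of the start, against 33.5% of all 35116 promoters of that table, searched on the gene's strand. Among ribosomal protein genes that host snoRNAs, 16 of 18 with an entry (88.9%) held it. Among GENCODE transcripts, 39 of 277 from the members (14.1%) began with such a run, against 2.41% of all 206694 transcripts, and 15 members had at least 1. Transcripts of the same gene can share a start, as all 6 of GAS5 do, so they are not independent. The share of all genes with at least 1 was not computed. Further letter patterns were searched. The MYC-type E-box CACGTG, which reads the same on both strands, was searched from 250 bases before the start to 50 bases after it. It was in 1 of 24 such windows (SNHG7) and in 7.26% of all promoters. The letters TATAA between 40 and 16 bases before the start, a search chosen after these windows had been seen, were in 6 of 24 (25%: SNHG5, SNHG7, SNHG8, SNHG12, SNHG19 and ZFAS1) against 3.91% of all promoters, on the gene's strand. Such matches describe the letters and are not evidence of a bound factor.

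The levels of the hosts spanned a wide range. On the TPM scale, which corrects for transcript length and so allows genes to be compared, SNHG29 stood alone at the top with 676, 763 and 836 TPM on the dish, against 648, 664 and 776 TPM in the gel. SNHG5 followed at 227 to 349 TPM over the 6 libraries, then ZFAS1 at 157 to 257, SNHG6 at 163 to 210.4, GAS5 at 127 to 187, SNHG19 at 118 to 203 and SNHG1 at 114 to 182. The ranges of neighbours from SNHG5 to SNHG1 overlapped, so their order is not fixed by these libraries, whereas the lowest SNHG29 value was above the highest of any other member. SNHG8 (78.95 to 117 TPM) and SNHG7 (61.2 to 78.45 TPM) came next, and the remaining 16 tested members stayed below 60 TPM in every library.

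**Figure D1:**
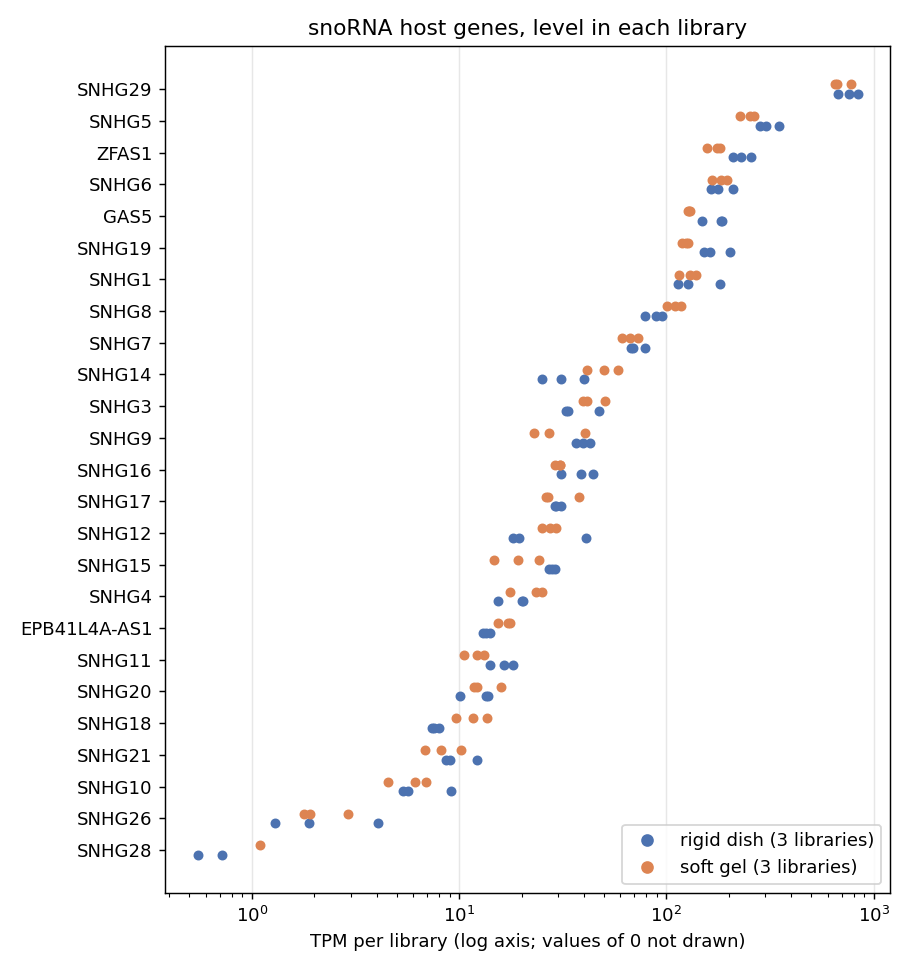
TPM of the 25 tested noncoding snoRNA host genes in each of the 3 rigid dish and 3 soft gel libraries, on a log axis without values of 0, ordered by mean TPM. SNHG29 lies above all others at 648 to 836 TPM, and every other point is at 349 TPM or below.

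As a group, the noncoding hosts changed little between the cultures. By edgeR's quasi-likelihood test, 25 members passed the low-count filter, 3 were higher in soft gel (EPB41L4A-AS1, SNHG18 and SNHG14), 2 were lower (SNHG16 and SNHG15) and 20 were not called at a Benjamini-Hochberg adjusted p of 0.05. The called share was 20%, against a background of 28.6% of the 16098 genes tested (15.4% higher and 13.2% lower). None of the 25 reached a 2-fold change, and the log2 fold changes, given throughout as soft gel over rigid dish, ran from -0.58 to 0.73. Their median was -0.14, with 17 below 0 and 8 above, against 0.05 for all genes tested and 0.35 for 1722 tested genes of the same noncoding biotypes. Of those 1722 genes, 16% were higher and 2.85% lower. The median absolute log2 fold change was 0.26 for the members and 0.37 for all genes. The groups did not overlap for 8 of 25 members (3 with soft gel above, 5 below), a share of 32% against a background of 44.6% (23.5% above, 21.1% below).

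The number of calls moved with single libraries. Dropping rigid dish 2 left 1 higher and 0 lower, dropping rigid dish 3 left 1 and 2, dropping soft gel 1 left 1 and 1, and dropping soft gel 2 left 1 and 0. Dropping rigid dish 1 gave 3 higher and 5 lower, and dropping soft gel 3 gave 2 and 5. Calls over all genes moved as well, from 4603 of 16098 with all 6 libraries. They were 2026 of 16659 without rigid dish 2, 3180 of 16671 without rigid dish 3 and 6164 of 16566 without rigid dish 1. Without soft gel 1, 2 or 3 they were 1963 of 16467, 1803 of 16410 and 5337 of 16558. The same totals apply to the list counts given below for dropped libraries. In the authors' deposited table, 2 members were higher and 4 lower at an adjusted p of 0.05, against 7.87% and 9.26% of its 29386 tested genes, and its further lower members were ZFAS1 (adjusted p = 0.0216) and SNHG19 (adjusted p = 0.0275), while SNHG18 was not called (adjusted p = 0.0644).

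**Figure D2:**
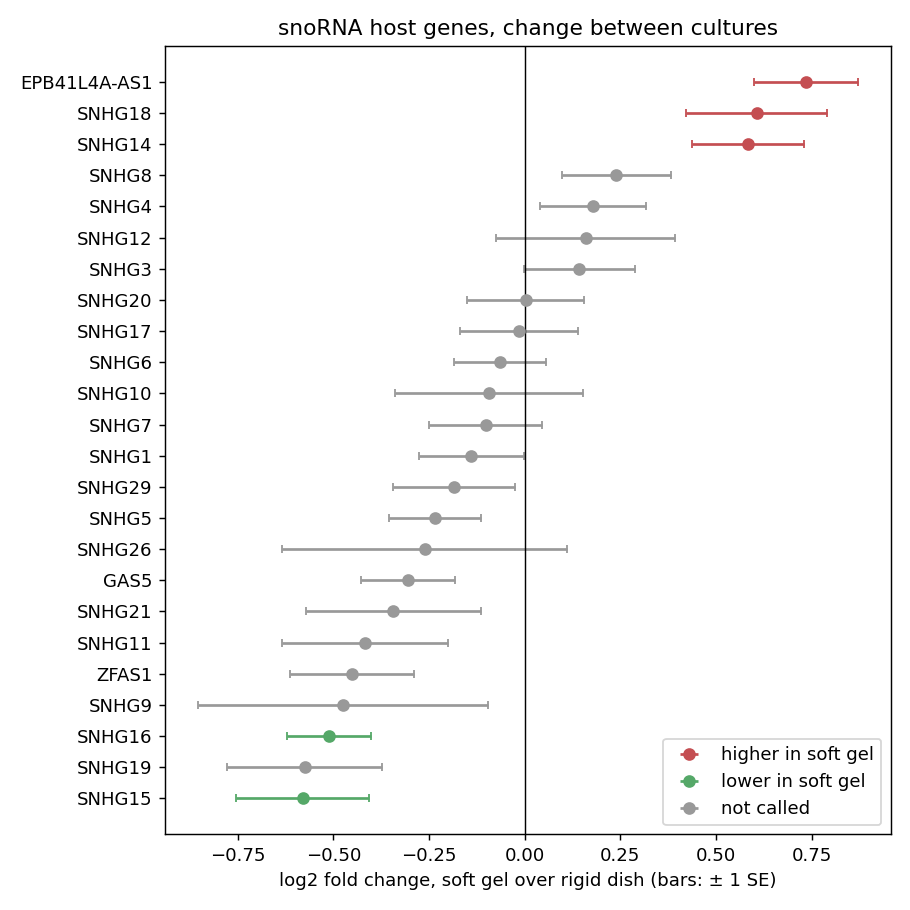
Log2 fold change of soft gel over rigid dish with 1 standard error on each side for 24 tested noncoding hosts, coloured by the edgeR call (SNHG28, with an SE of 1.29, is not drawn). Values run from -0.58 for SNHG15 to 0.73 for EPB41L4A-AS1, and 5 members were called.

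Among the members that rose, EPB41L4A-AS1, which hosts the H/ACA guide SNORA13, held 10.8, 12.9 and 11.96 CPM on the dish, against 19.5, 19.6 and 20.3 CPM in the gel. Every gel library was above every dish library, and the gel values lay close together. The gene (chromosome 5, 112160526 to 112164276, plus strand) had an edgeR adjusted p of 0.00558 for a log2 fold change of 0.73 ± 0.136 (SE), a 1.66-fold higher level. The call was kept on leaving out any single library (adjusted p from 0.0062 to 0.0313) and lost on TPM values (adjusted p = 0.196 with a pseudocount of 1 and 0.186 with 0.1). On that scale the means were 13.5 ± 0.589 and 16.75 ± 1.14 TPM (SD, n = 3), and the log2 fold change was 0.29 and 0.30 with these pseudocounts. Of its exon bases, 49.6% overlap exons of EPB41L4A on the other strand, and no strand setting is stated, so reads of the 2 genes cannot be told apart there. EPB41L4A was itself higher in soft gel, with a log2 fold change of 0.54 (edgeR adjusted p = 0.0292).

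SNHG14 is the very long host of the SNORD115 and SNORD116 arrays in the imprinted Prader-Willi and Angelman region, and its distal part runs antisense to UBE3A. It covers 440880 bases of chromosome 15 (24978583 to 25419462, plus strand) and holds 84 of the 139 snoRNA genes found inside the members. Its levels were 166, 140.2 and 133 CPM on the dish, against 226, 251 and 181 CPM in the gel. All gel libraries were above all dish libraries, with soft gel 3 the nearest to the dish. The log2 fold change was 0.58 (SE 0.146, edgeR adjusted p = 0.0187), a 1.498-fold higher level. Leaving out rigid dish 2 or 3 ended that call (adjusted p = 0.0842 and 0.0859), as did leaving out soft gel 1 or 2 (0.0756 and 0.0861) and the TPM scale (0.0651 and 0.0639).

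Genes beside or overlapping SNHG14, named after their values were seen, were examined for the same shift. SNRPN, whose promoter region lies upstream on the same strand, averaged 146 CPM and had a log2 fold change of -0.05 (edgeR adjusted p = 0.83). UBE3A, the ubiquitin ligase gene on the other strand, had a log2 fold change of 0.0044 at 91.7 CPM (edgeR adjusted p = 0.984). SNURF (0.35, at 4.12 CPM), PWAR5 (0.35, at 2.52 CPM) and AC124312.3 (0.75, at 2.68 CPM), which shares exon bases with SNHG14 on the same strand, had positive log2 fold changes (edgeR adjusted p = 0.316, 0.659 and 0.0682). None of these 5 genes was called, and whether SNHG14 differs from them was not tested.

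SNHG18, host of the C/D guide SNORD123, held 4.90, 5.77 and 6.27 CPM on the dish, against 8.15, 7.75 and 9.90 CPM in the gel, again without overlap. Its log2 fold change was 0.61 (SE 0.185, edgeR adjusted p = 0.0371). This call was the least stable of the 5, since it was lost on leaving out any of the 6 libraries (adjusted p from 0.0581 to 0.118), with DESeq2 (0.0654), without a low-count filter (0.0704) and on TPM values (0.0859 and 0.0773). SNHG18 (chromosome 5, 9546200 to 9550609, plus strand) starts 125 bases from the start of SEMA5A, an axon guidance semaphorin gene on the other strand. SEMA5A rose far more, from 10.9 ± 0.963 to 173 ± 32.2 CPM (SD, n = 3 each), with a log2 fold change of 3.98 (edgeR adjusted p = 9.12e-06).

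Among the members that fell, SNHG16, host of the C/D guides SNORD1A, SNORD1B and SNORD1C, held 64.6, 66.4 and 57.6 CPM on the dish, against 45.6, 42.0 and 44.7 CPM in the gel. The gel libraries were all below the dish libraries and differed little among themselves. The gene (chromosome 17, 76557766 to 76565348, plus strand) had an edgeR adjusted p of 0.0106 for a log2 fold change of -0.51 ± 0.111 (SE). The call was lost without rigid dish 2 (adjusted p = 0.061) or soft gel 2 (0.0552). On TPM values it was lost as well (0.187 and 0.188), with a log2 fold change of -0.31 and -0.32, where rigid dish 3 at 30.9 TPM lay next to the gel libraries at 29.01 to 30.73 TPM.

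SNHG15, host of the H/ACA guide SNORA9, held 15.3, 17.9 and 18.6 CPM on the dish, against 13.4, 9.17 and 12.1 CPM in the gel. The groups did not overlap, though soft gel 1 lay close to rigid dish 1. Its log2 fold change was -0.58 (SE 0.174, edgeR adjusted p = 0.0351). The gene lies on chromosome 7 (44983023 to 44986961, minus strand). Leaving out rigid dish 2 or 3 ended the call (adjusted p = 0.114 and 0.066), as did leaving out soft gel 1 or 2 (0.0565 and 0.125) and the TPM scale (0.0882 and 0.0862).

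GAS5, ZFAS1 and SNHG19 were lower on average without passing the test. GAS5, which carries many C/D guides and is known as a growth arrest transcript that accumulates when translation is inhibited, held 50.1, 60.1 and 63.5 CPM on the dish, against 45.1, 46.4 and 48.9 CPM in the gel. Its groups did not overlap, the log2 fold change was -0.31 (SE 0.123) and the edgeR adjusted p was 0.0871. It passed without rigid dish 1 (adjusted p = 0.0191), with the replicate number as a block (0.0429) and on TPM values (0.0433 and 0.0455).

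ZFAS1, which hosts SNORD12, SNORD12B and SNORD12C, held 52.5, 80.3 and 72.5 CPM on the dish, against 49.0, 46.6 and 54.5 CPM in the gel. The groups overlapped through rigid dish 1, which lay between soft gel 1 and soft gel 3. Its log2 fold change was -0.45 (SE 0.161, edgeR adjusted p = 0.062), and without rigid dish 1 the adjusted p was 0.00445. It also passed with DESeq2 size factors (0.0494), without a low-count filter (0.00629), with the replicate block (0.0215), without soft gel 3 (0.0414), with DESeq2 (0.0217) and on TPM values (0.0372 and 0.0386). ZNFX1, which starts 248 bases from the annotated start of ZFAS1 on the other strand, had a log2 fold change of 0.03 (edgeR adjusted p = 0.866).

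SNHG19, host of SNORD60, averaged 9.70 CPM and is given here because it lay near the threshold. Its values were 14.7, 9.86 and 10.2 CPM on the dish, against 6.67, 8.24 and 8.49 CPM in the gel, without overlap. The log2 fold change of -0.58 (SE 0.203) had an edgeR adjusted p of 0.0591, which crossed to as low as 0.0144 (no low-count filter) and rose to as high as 0.197 over the alternatives.

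**Figure D3:**
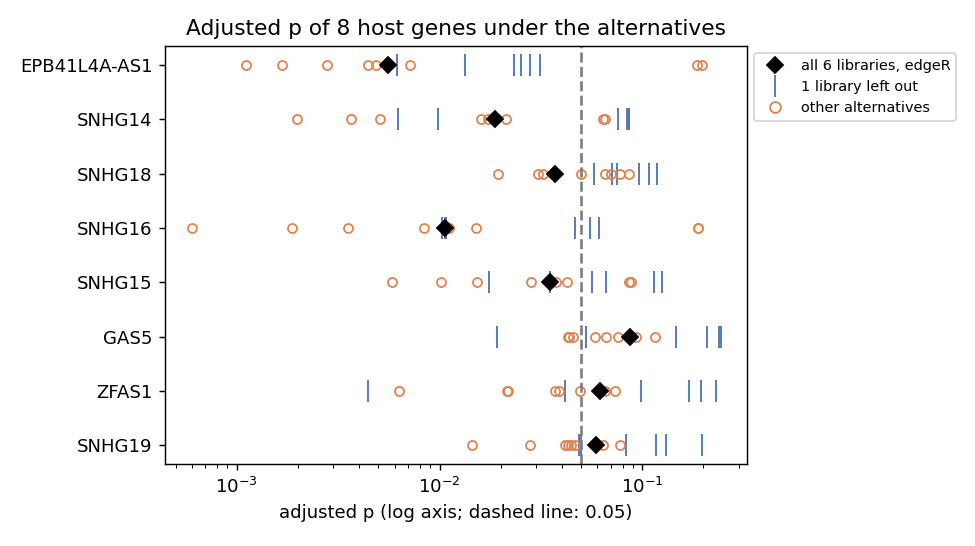
Benjamini-Hochberg adjusted p of the 5 called hosts and of GAS5, ZFAS1 and SNHG19 on a log axis. Diamonds mark the edgeR fit of all 6 libraries, ticks the fits without 1 library and circles the other alternatives. Only for EPB41L4A-AS1 do all ticks lie below the dashed line at 0.05, and for SNHG18 all 6 lie above it.

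The most abundant host, SNHG29, which carries SNORD49A, SNORD49B and SNORD65, held 280.4, 344 and 409.9 CPM on the dish, against 268, 291 and 351 CPM in the gel. The groups overlapped, and the difference (log2 fold change -0.19, SE 0.159, edgeR adjusted p = 0.399) was smaller than the spread within the dish group. SNHG1, host of a run of C/D guides from SNORD22 to SNORD31, held 98.3, 79.7 and 73.2 CPM on the dish and 76.0, 69.4 and 82.7 CPM in the gel. Only rigid dish 1 stood above the rest for SNHG1 (log2 fold change -0.14, SE 0.137, edgeR adjusted p = 0.463). SNHG5, host of SNORD50A and SNORD50B, held 44.9, 49.9 and 48.6 CPM on the dish and 39.1, 37.3 and 45.5 CPM in the gel. Soft gel 3 reached the dish range, and the log2 fold change of -0.24 (SE 0.12) did not pass (edgeR adjusted p = 0.165, and 0.0397 without soft gel 3).

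SNHG3, host of the H/ACA RNAs SNORA73A and SNORA73B, held 64.7, 51.9 and 57.6 CPM on the dish and 58.2, 57.9 and 76.4 CPM in the gel (log2 fold change 0.14, SE 0.145). RCC1, the chromatin-bound exchange factor for Ran whose exons share bases with SNHG3 on the same strand, fell (log2 fold change -0.78 ± 0.117, SE) at an edgeR adjusted p of 0.00262. SNHG6, host of SNORD87, held 40.4, 33.1 and 40.01 CPM on the dish and 36.4, 36.0 and 36.2 CPM in the gel, so that the gel values fell inside the dish range (log2 fold change -0.06, SE 0.121). SNHG7, host of SNORA17A and SNORA17B, held 29.1, 31.1 and 38.9 CPM against 27.5, 31.3 and 33.5 CPM (log2 fold change -0.10, SE 0.147).

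SNHG4, which carries SNORA74A and SNORA74D, held 19.9, 21.4 and 19.1 CPM on the dish and 24.7, 19.6 and 24.0 CPM in the gel (log2 fold change 0.18, SE 0.139). SNHG8, host of SNORA24, held 15.4, 17.8 and 18.1 CPM against 17.9, 20.9 and 21.9 CPM (log2 fold change 0.24, SE 0.142). For both, 2 gel libraries were above all dish libraries and 1 was inside their range. SNHG12, which carries SNORA16A, SNORA44, SNORA61 and SNORD99, held 22.6, 13.1 and 11.8 CPM on the dish and 17.4, 16.7 and 18.9 CPM in the gel. Rigid dish 1 was the highest of all 6 libraries for SNHG12, and without it the gene passed as higher in soft gel, with a log2 fold change of 0.50 (edgeR adjusted p = 0.0245), against 0.16 (SE 0.234, adjusted p = 0.631) with it.

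SNHG17, host of SNORA71A to SNORA71D, held 15.3, 17.3 and 17.3 CPM on the dish and 15.07, 14.98 and 19.4 CPM in the gel (log2 fold change -0.01, SE 0.153). SNHG20, host of SCARNA16, held 10.96, 13.8 and 13.5 CPM against 12.97, 11.98 and 13.4 CPM (log2 fold change 0.0021, SE 0.152). The direction of these 2 genes depended on the scaling, as upper quartile factors turned SNHG17 to 0.02 and DESeq2 size factors turned SNHG20 to -0.04. None of the members from SNHG29 to SNHG20 in this account was called with all 6 libraries (edgeR adjusted p from 0.165 to 0.993).

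Of the 25 tested members, 8 averaged below 10 CPM, among them SNHG18 and SNHG19. The other 6 (SNHG11, SNHG10, SNHG21, SNHG26, SNHG9 and SNHG28) averaged 0.269 to 9.48 CPM, had log2 fold changes from -0.48 to -0.09 and were not called (edgeR adjusted p from 0.172 to 0.803). SNHG11, host of SNORA60 and SNORA71E, passed as lower without rigid dish 1 (adjusted p = 0.0324). SNHG28 was the member nearest the filter that passed it, with counts in 2 dish libraries and 1 gel library and 0 in the others, and 100% of its exon bases are shared with other genes on the same strand. Those counts cannot be assigned to SNHG28 with certainty, and its SE was 1.29. SNHG21 shares 72.9% of its exon bases with other genes on the same strand, so its level is uncertain as well. Smaller same-strand shares applied to other members, among them ZFAS1 (20.9%), SNHG4 (14.0%) and SNHG20 (10.7%). The largest overlaps of SNHG4 and SNHG20 were with the more abundant MATR3 (182 CPM) and SEC14L1 (288 CPM). How far this moved their counts was not tested.

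The 3 members below the filter were SNHG22, SNHG25 and SNHG27. SNHG22, which hosts SCARNA17, was the nearest to it, with counts of 0, 3 and 3 on the dish against 9, 19 and 4 in the gel. Its neighbour ACAA2, a mitochondrial thiolase gene starting 63 bases away on the other strand, rose with a log2 fold change of 0.53 (edgeR adjusted p = 0.0206). SNHG25 had 2 counts in soft gel 3 and 0 elsewhere. SNHG27 had 0 counts in all 6 libraries, which at 3 counts per library allows up to 0.116 to 0.143 CPM, for counting error only.

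Summed over all 28 members, the noncoding hosts took 1041, 1087 and 1146 CPM on the dish, against 1023, 1055 and 1122 CPM in the gel. The groups overlapped, at 1091 ± 52.4 against 1067 ± 50.6 CPM (SD, n = 3), a ratio of 0.977 (exact permutation p = 0.6, two-sided, where 0.1 is the smallest that 3 against 3 allows). SNHG29 alone made up 26.2% to 35.8% of the sum. The direction of the sum was not fixed, since without SNHG29 the ratio was 1.02, per raw library total 1.03, without rigid dish 3 it was 1.002 and on the TPM scale 0.89. On that TPM scale the groups did not overlap, at 2433 to 2480 on the dish against 2086 to 2318 in the gel (exact permutation p = 0.1).

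Protein-coding genes that host snoRNAs gave a comparison with the same intron-encoded arrangement but a coding exon product. Of 28 ribosomal protein genes that hold a snoRNA gene on the same strand, 26 were lower in soft gel, 0 higher and 2 not called, with a median log2 fold change of -0.65. The lower share was 92.9%, against 13.2% of all genes tested. RPSA, a small subunit protein also known as the laminin receptor, went from 1202 ± 167 to 596 ± 61.5 CPM (SD, n = 3; log2 fold change -1.01, edgeR adjusted p = 0.00161). RPS2, another small subunit protein, fell as well (-0.93, edgeR adjusted p = 0.00701). Leaving out rigid dish 2 left 20 of them lower, and leaving out either soft gel 1 or 2 left 17; dropping any other library gave 26 to 28. RPS2 starts 99 bases from SNHG9 on the other strand, and SNHG9, host of SNORA78, had a log2 fold change of -0.48 (SE 0.379) at 1.11 CPM, which did not pass (edgeR adjusted p = 0.364).

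The 28 ribosomal protein hosts summed to 16788, 20991 and 23242 CPM on the dish, against 11512, 11714 and 13623 CPM in the gel, without overlap. Expressed as a percentage of that sum, the noncoding hosts were at 6.20%, 5.18% and 4.93% on the dish and 8.88%, 9.01% and 8.24% in the gel. The gel libraries were all above the dish libraries, at 8.71% ± 0.415 against 5.44% ± 0.674 (SD, n = 3). The exact permutation p was 0.1, two-sided, the smallest possible. This percentage was formed after the data were seen, and the noncoding sum changed little. Its separation therefore follows that of the ribosomal protein sum, and the p-value is not a further result. In both cultures the library with the lowest SNHG29 level (rigid dish 1 and soft gel 1) also had the lowest ribosomal protein sum, and the one with the highest (rigid dish 3 and soft gel 3) the highest.

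**Figure D4:**
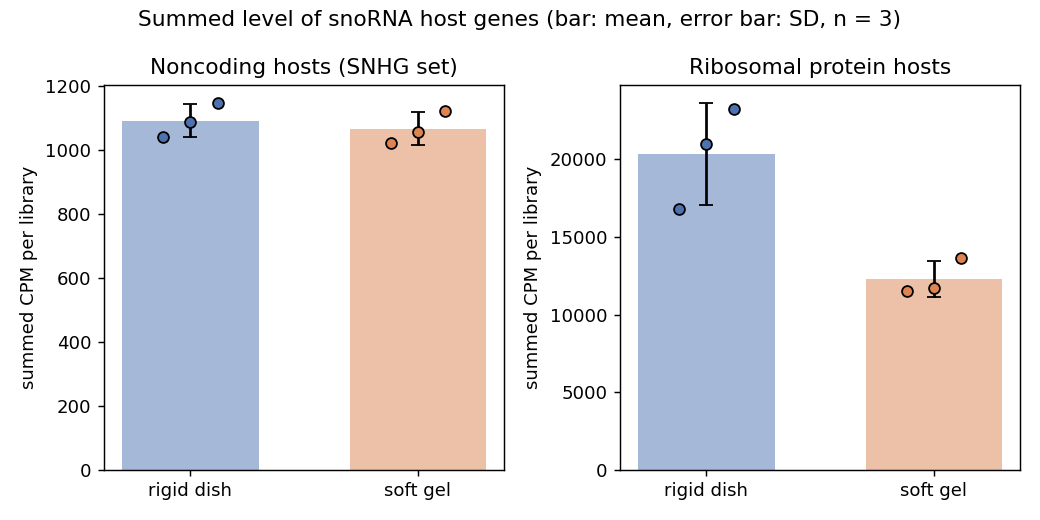
Summed CPM per library of the 28 noncoding snoRNA hosts (left) and of the 28 ribosomal protein genes that host snoRNAs (right), with bars for the mean and error bars for the SD over 3 libraries. The noncoding sum lies at 1091 against 1067 CPM with overlapping points, and the ribosomal protein sum at 20340.2 against 12283 CPM without overlap.

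The other protein-coding hosts showed no common direction. Of 217 tested, 29 were higher, 39 lower and 149 not called, with a median log2 fold change of -0.09. The shares were 13.4% higher and 18.0% lower, against 15.4% and 13.2% of all genes tested. This list includes predicted snoRNA copies, so it may hold genes that make no functional guide, and it shares genes with lists given below, among them EEF2, EEF1B2, DKC1 and NOP56, and C6orf48 with the noncoding hosts outside the rule. C19orf48 (-1.17), AC006064.6 (-0.98) and RANBP1, a Ran-binding protein (-0.87), fell most, and SLC2A13, a proton myo-inositol transporter (2.86), the integrin subunit ITGB8 (1.27) and N4BP2 (1.17) rose most among genes of at least 5 CPM that passed edgeR's test. Dropping rigid dish 2, or either of the first 2 gel libraries, left 13 higher and 13 to 15 lower, and dropping rigid dish 3 left 14 and 39. The noncoding hosts outside the naming rule were few. DANCR, a noncoding host of SNORA26, had a log2 fold change of -0.04 at 101 CPM (edgeR adjusted p = 0.869). C6orf48 (now SNHG32) went from 63.3 ± 15.3 to 87.0 ± 5.41 CPM, with a log2 fold change of 0.46 that did not pass (edgeR adjusted p = 0.0701). Of 12 tested among 48 further noncoding genes that hold a snoRNA gene in the annotation, DANCR included, 1 was higher (TMEM161B-AS1, log2 fold change 1.58, edgeR adjusted p = 0.00296, named after its values were seen) and 0 lower. The higher share was 8.33%, against 15.4% of all genes tested.

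RNAs for proteins that bind and assemble snoRNAs were lower or not called. Of 21 genes of the box C/D and H/ACA particles and their assembly, 11 fell, 0 rose and 10 were not called, with a median log2 fold change of -0.39. The fallen share was 52.4%, against 13.2% of all genes tested. Genes not called had log2 fold changes on both sides of 0, such as -0.32 for COIL and 0.51 for RPAP3. FBL, fibrillarin, the methyltransferase of C/D particles, went from 125 ± 13.1 to 64.9 ± 6.50 CPM (SD, n = 3; log2 fold change -0.94, edgeR adjusted p = 0.00161). TCOF1, treacle, a nucleolar factor of ribosomal DNA transcription and modification, had a log2 fold change of -0.97, and RUVBL1, an ATPase of the assembly machinery, one of -0.92. Leaving out rigid dish 2 left 6 fallen genes, and leaving out either soft gel 1 or 2 left 5.

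The other lists of the pathway were read from the same fit. Of 19 TOP mRNAs that are mostly translation factors, 13 fell (68.4%, against 13.2% of all genes tested), 0 rose and 6 were not called. Their median log2 fold change was -0.51, and the fall was led by PABPC1, the poly(A)-binding protein (-0.72), EIF3F (-0.71) and EEF2, elongation factor 2 (-0.71). Of the 19, 6 passed when rigid dish 2 was dropped, 5 when soft gel 1 was and 4 when soft gel 2 was. Of 15 genes of mTORC1 and LARP1, which control translation of TOP mRNAs, 2 rose (13.3%) and 1 fell (6.67%). Among all genes tested, 15.4% were higher and 13.2% lower. TSC1, a brake on mTORC1, rose (0.46), as did the mTOR inhibitor DEPTOR (2.72, at 2.69 CPM, named after its values were seen), and the translational repressor EIF4EBP1 fell (-1.96, edgeR adjusted p = 0.0202) with overlapping groups. Dropping rigid dish 1 or soft gel 3 gave 4 higher and 3 lower, dropping rigid dish 3 gave 1 and 1, and dropping any other library gave 1 and 0.

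Of 19 genes of nonsense-mediated decay and the exon junction, which act on many spliced noncoding hosts, 1 rose (5.26%) and 2 fell (10.5%). Their median log2 fold change was -0.05. For this list and the 2 that follow, the shares over all genes tested were 15.4% higher and 13.2% lower. The genes that fell were the helicase UPF1 (-0.44) and CASC3 (-0.41). Dropping rigid dish 2, or either of the first 2 gel libraries, left 0 fallen genes, dropping rigid dish 3 left 1, and dropping soft gel 3 gave 4 higher and 4 lower; 2 were higher when rigid dish 1 was dropped. Of 16 genes of the exosome and intron turnover, 5 fell (31.25%) and 0 rose, and EXOSC5 (-0.75), EXOSC2 (-0.65) and EXOSC8 (-0.63) were among those that fell. Dropping rigid dish 2 left 2 fallen genes, dropping soft gel 1 or 2 left 3, and dropping soft gel 3 gave 8. In the MYC network, 2 of 10 fell and 2 rose (20% each). MYC went from 80.2 ± 15.02 to 38.1 ± 7.17 CPM (log2 fold change -1.075, edgeR adjusted p = 0.00385), MLX fell (-0.49), and the MYC antagonists MXI1 (1.08) and MXD1 (0.66) rose. Dropping rigid dish 2 or soft gel 1 left 2 higher and 1 lower, dropping soft gel 2 left 1 and 1, dropping soft gel 3 gave 2 and 3, and dropping rigid dish 1 gave 3 and 2.

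**Figure D5:**
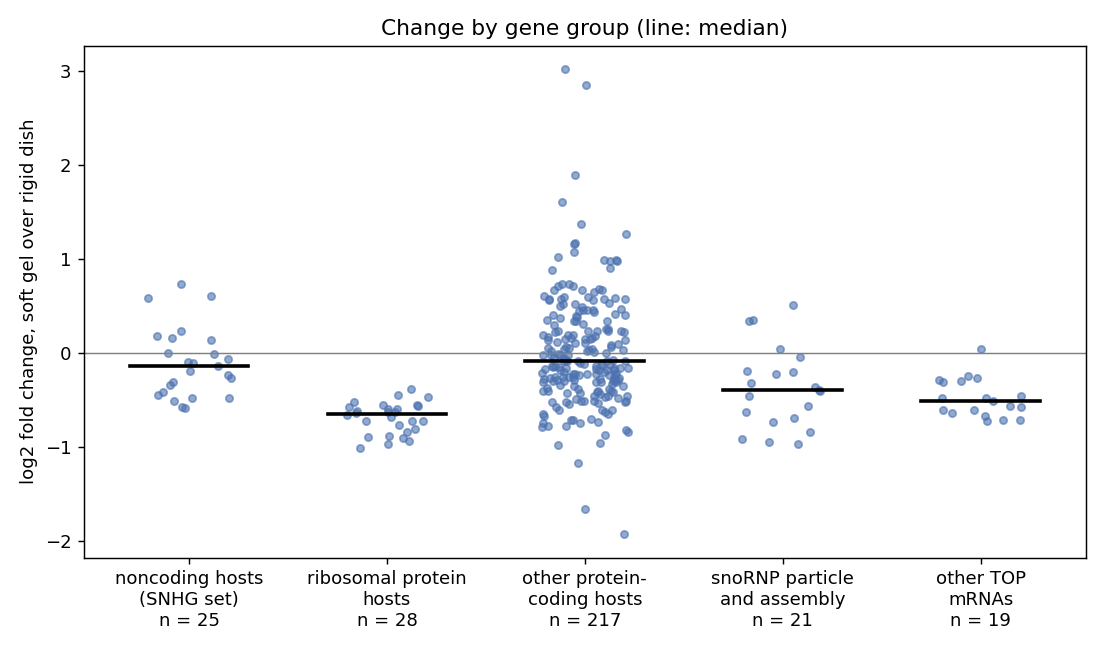
Log2 fold change of soft gel over rigid dish for the tested genes of 5 groups, 1 point per gene, with a line at each median. Noncoding hosts (median -0.14) and other protein-coding hosts (-0.09) spread to both sides of 0, while all 28 ribosomal protein hosts (-0.65) lie below it.

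Members with and without a motif in the RefSeq window had both directions. Among tested members with a promoter entry, 9 of 14 with the pyrimidine run had a log2 fold change below 0 (median -0.14), and so did 5 of 8 without it (median -0.12). GAS5, SNHG1 and SNHG3, counted as without the run, have GENCODE transcripts that begin with one. For SNHG7, SNHG14, SNHG17 and SNHG26, counted as with it, no GENCODE transcript does. The split therefore cannot tell whether hosts with a TOP start differ from the others. With TATAA it was 4 of 6 (median -0.17) and without it 10 of 16 (median -0.12). Of the 7 protein-coding genes that start within 1 kb of a member on the other strand, SEMA5A and ACAA2 rose, RPS2 fell, and ZNFX1, SLC3A2 (beside SNHG1), TRAF7 (beside SNHG19) and ZBTB37 (beside GAS5) were not called. These shares of 28.6% higher and 14.3% lower rest on 7 genes, against 15.4% and 13.2% of all genes tested. Dropping rigid dish 1 gave 3 higher and 3 lower, dropping soft gel 3 gave 2 and 2, and dropping any other library left 1 and 1. The amino acid transporter subunit SLC3A2 had a log2 fold change of -0.03 (SE 0.336), with a wide spread on the dish. It held 151, 432 and 448 CPM there, against 292, 326 and 388 CPM in the gel. TRAF7, a ubiquitin ligase, had a log2 fold change of -0.45 (edgeR adjusted p = 0.0524).

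The snoRNAs themselves were hardly sampled. GENCODE 29 places 139 snoRNA genes inside the members, 84 of them in SNHG14, and 129 of these had 0 counts in all 6 libraries. The other 10 summed to 46 counts over the 6 libraries, 24 from the dish and 22 from the gel, and none passed the filter. The highest was SNORA71B in SNHG17 with 17 counts, followed by SNORA73B (9) and SNORA73A (5) in SNHG3, SNORD22 in SNHG1 (4) and a predicted snoRNA, RF00099, in SNHG1 (3). No difference in guide level could be read from these counts, and why they are so low was not tested. The 3 guides of ZFAS1 are shown as an example: RNAs of 89 to 91 bases with a C box (TGATGA) near the 5′ end and a D box (CTGA) near the 3′ end, both in capitals, each at 0 counts while their host had 46.6 to 80.3 CPM. They lie on the plus strand at chr20:49280683-49280772, chr20:49280319-49280409 and chr20:49278940-49279028.
SNORD12: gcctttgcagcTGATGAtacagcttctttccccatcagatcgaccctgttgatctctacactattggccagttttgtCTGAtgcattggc
SNORD12B: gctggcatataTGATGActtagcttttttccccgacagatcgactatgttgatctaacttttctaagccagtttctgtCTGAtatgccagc
SNORD12C: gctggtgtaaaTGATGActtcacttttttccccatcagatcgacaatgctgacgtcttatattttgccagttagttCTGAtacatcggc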

How the data were processed

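RNA of 6 DBTRG libraries was sequenced after TRIzol extraction and Illumina TruSeq RNA preparation, per the labels' protocols. HISAT2, HTSeq and the build hg38 are listed in the submitters' processing notes. The authors deposited estimated counts per gene, 11.3% to 13.0% of which held decimals, and TPM values summing to 985477 to 991371 per library. No source used here gives the strand setting or says how decimals arose. The authors' deposited comparison gives a fold (a ratio), a log2 fold change, and p-values per gene.

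Counts were rounded, filtered with filterByExpr (minimum count 10), scaled by TMM and tested by quasi-likelihood in edgeR 4.0.16 (R 4.3.3), with Benjamini-Hochberg adjustment over 16098 genes; DESeq2 1.42.0 and limma 3.58.1 served as alternatives. Each SE was taken from the test statistic. Library totals of 20911340 to 25901465 counts put 3 counts at 0.116 to 0.143 CPM. The pipeline was tested on simulated data. GENCODE 29 held 99.4% of the gene identifiers. The members and lists were chosen with earlier results of these data known; the TATAA search, transcript starts and summed ratios were added after the data were seen. The row SNHG29 was counted as a member by its symbol. Members of at least 10 CPM were given in every library; of each list, up to 3 genes per direction that passed at 5 CPM or more were named, by size, and genes beside them only where said or where they start near or overlap a member. Some genes that this rule would name are not reported here.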

Additional observations from a re-analysis of the deposited data

How the results depend on the processing

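Of 349 recomputed log2 fold changes of the 25 tested members, 278 kept their direction and side of the threshold, 28 lost a call, 23 gained one and 20 changed sign, the last in 7 members that were not called with all libraries. SNHG20 turned to -0.0396 (DESeq2 size factors), -0.0588 (no low-count filter) and -0.0557 (DESeq2), and SNHG17 to 0.0208 (upper quartile), 0.0022 (1 CPM filter), 0.0068 and 0.0064 (TPM). Leaving out 1 library at a time gave -0.104 to 0.0561 for SNHG20, -0.208 to 0.0489 for SNHG17, -0.295 to 0.026 for SNHG10, -0.558 to 0.0574 for SNHG26, -0.0621 to 0.221 for SNHG3 and -0.0812 to 0.502 for SNHG12. For SNHG28 it gave -5.91 to 0.0904, the lower value arising where all remaining gel libraries were at 0, so that it depends on the prior count.

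Members higher in soft gel numbered 0 on TPM values with either pseudocount, and 1 to 3 on leaving out 1 library. TPM values gave fewer calls over all 16098 genes too: 2313 with a pseudocount of 1 and 2287 with 0.1, against 4603 in the main fit. Of these, 1345, 1327 and 2480 were higher. Members lower numbered 4 with DESeq2 size factors, without a filter or with DESeq2, and 0 to 5 on leaving out 1 library. With DESeq2 size factors 2447 of 16098 genes were lower, without a filter 2814 of 29366 and with DESeq2 2712 of 29365. The main fit had 2123 of 16098 lower. The replicate numbers shared only a number: same-numbered libraries had correlated deviations of 0.217, 0.0091 and 0.307, and soft gel 2 correlated best with rigid dish 1. With the replicate block 5 members were lower, 49 protein-coding hosts higher and 2 particle genes higher. Calls over all 16098 genes rose with that block too, to 3499 higher and 2943 lower, from 2480 and 2123. All protein-coding hosts, 29 higher and 65 lower with all libraries (11.8% and 26.5% of 245 tested), gave 17 and 40 on TPM values. On leaving out 1 library they gave 13 to 38 higher and 30 to 77 lower. Under the same omissions ribosomal protein hosts lower ran from 17 to 28, other TOP mRNAs lower from 4 to 17, particle genes lower from 5 to 12 and higher from 0 to 2 (1 without a filter). The ratio of summed levels was 1.03 on raw totals, 1.02 without SNHG29 and 0.89 on TPM, and 0.952 to 1.002 on leaving out 1 library. The cause of these shifts was not tested.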
